A study of Mus musculus with 24 samples.

Results

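Lung gene expression was compared between 6 mice given bleomycin (BLM) with EXT5 and 6 mice given BLM with vehicle. They were 12 of the 24 mice with arrays. Members were chosen by the group in the sample titles, and every gene of the chip that passed a level filter was described. All animals were female C57BL/6 mice, 12.5 weeks of age. The EXT5 mice received BLM, a DNA-damaging drug used to model lung fibrosis, as subcutaneous doses of 50 IE 3 times a week for 2 weeks, and EXT5 by mouth at 30 mg/kg daily. The BLM mice received the same BLM doses and the oral vehicle, 2.5% Tween80. The sample records list no Tween80 for the EXT5 mice. By these records the groups differ in EXT5 and in vehicle, which cannot be told apart. The other animals with arrays were 6 mice with BLM and EXT9, a second compound of the same class, and 6 saline controls with vehicle. RNA came from distal lung tissue, 1 array per mouse, so a lower signal of a cell type's genes can mean fewer cells of that type or less RNA per cell, which cannot be told apart. Both groups carry BLM, so each difference below is between 2 groups of BLM lungs.

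EXT5 is an antagonist of the serotonin (5-HT) receptor 5-HT2B. The 5-HT2B receptor is coupled to Gq proteins and phospholipase C, and is known in fibroblasts and smooth muscle for effects on growth and on myofibroblast features. The distal lung holds alveolar type 2 cells, which make surfactant, flat type 1 cells, capillary and larger vessel endothelium, smooth muscle of airways and vessels, fibroblasts, macrophages, and the club and ciliated cells of small airways.

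The sorted signals of the 24 arrays formed 2 distributions, taken here as 2 array runs. All 6 EXT5 arrays, all 6 EXT9 arrays, BLM 1, 4 and 6 and 3 saline arrays shared one of them (18 arrays, median signal 103.3), whereas BLM 2, 3 and 5 and the other 3 saline arrays shared the other (6 arrays, median signal 110.3). The membership is inferred from the values. The 6 saline and BLM arrays that share the EXT distribution are 1 more than the design text counts as measured again, so the run of 1 of them is in doubt. The comparison was made on all arrays and again on the arrays of the EXT run alone, where 6 EXT5 arrays stand against BLM 1, 4 and 6. No EXT5 array lies in the other run, so that run gives no value of its own. In 5 stretches of the table the signals of the other run stood at the wrong probes (correlation with the EXT run outside the stretches was 0.995 across probes), and 424 such probes were left out when all arrays were used. Lung markers were bright in both groups: *Sftpc*, a surfactant protein, had log2 signals of 14.11 to 14.3 in EXT5 mice and 13.92 to 14.63 in BLM mice, and *Ager*, of type 1 cells, 13.19 to 13.4 in EXT5 mice and 12.89 to 13.5 in BLM mice. Only *Ptprc*, which marks all leukocytes, lay close to the lowest signal on the arrays (6.31), at 6.68 to 6.93 in EXT5 mice and 6.72 to 7.17 in BLM mice. Different probes bind with different strength, so levels are compared between groups and never between probes. All values below are log2 signals, and a difference is EXT5 minus BLM.

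EXT5 lungs had lower signals of smooth muscle genes, of the retinoic acid genes *Rarb* and *Cyp26b1* and of the secreted matrix protein gene *Spon2*. Signals of the type 2 cell gene *Napsa* and of the clock genes *Dbp* and *Ciart* were higher, and that of the clock gene *Arntl* was lower. With all arrays, 1656 of 22216 probes (7.45%) passed limma's moderated test at a Benjamini-Hochberg adjusted p under 0.05, 221 higher (0.995%) and 1435 lower (6.46%) in EXT5 mice. Against BLM 1, 4 and 6 alone, 286 of 22640 probes (1.26%) passed, 181 higher (0.799%) and 105 lower (0.464%). The large share of lower calls was not seen within the run. The median difference over all probes was -0.05 with all arrays, where 70.4% of probes were below 0, and 0.00 within the run, where 48.7% were. With all arrays, 86.7% of the calls were lower in EXT5 mice. After each array was centred on its median the share was 67.6% (416 higher and 869 lower), after quantile normalization of the 24 arrays together 58.1% (523 higher and 725 lower), and with the array run as a block 45% (506 higher and 414 lower).

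Passing in both fits and in the same direction gave a shorter set of 166 probes (0.747%), of which 72 were higher (0.324%) and 94 lower (0.423%) in EXT5 mice. These probes belonged to 130 genes, 54 higher and 76 lower, and 21 of the probes had no gene symbol. No probe passed in opposite directions, and 160 of the 166 also passed with the array run as a block. The 2 fits share all EXT5 arrays and 3 BLM arrays and are not independent of each other. Most changes were small: 17 of the 166 probes reached 2-fold within the run, whereas 95 stayed under 1.5-fold. Of the 1435 lower calls with all arrays, 94 (6.55%) passed within the run, against 72 of the 221 higher calls (32.6%). All 1656 had the same sign within the run. With only 3 BLM arrays in the run, the calls there rest on each of them: 38, 49 and 31 probes passed without BLM 1, 4 and 6, among them 23, 25 and 20 of the 166, all of which kept their direction. The calls within the run lay mostly among bright probes, with 93 higher and 37 lower among the 4528 probes with the brightest mean signal (9.035 to 14.63), and 0 higher and 2 lower among the 4528 dimmest tested.

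**Figure D1:**
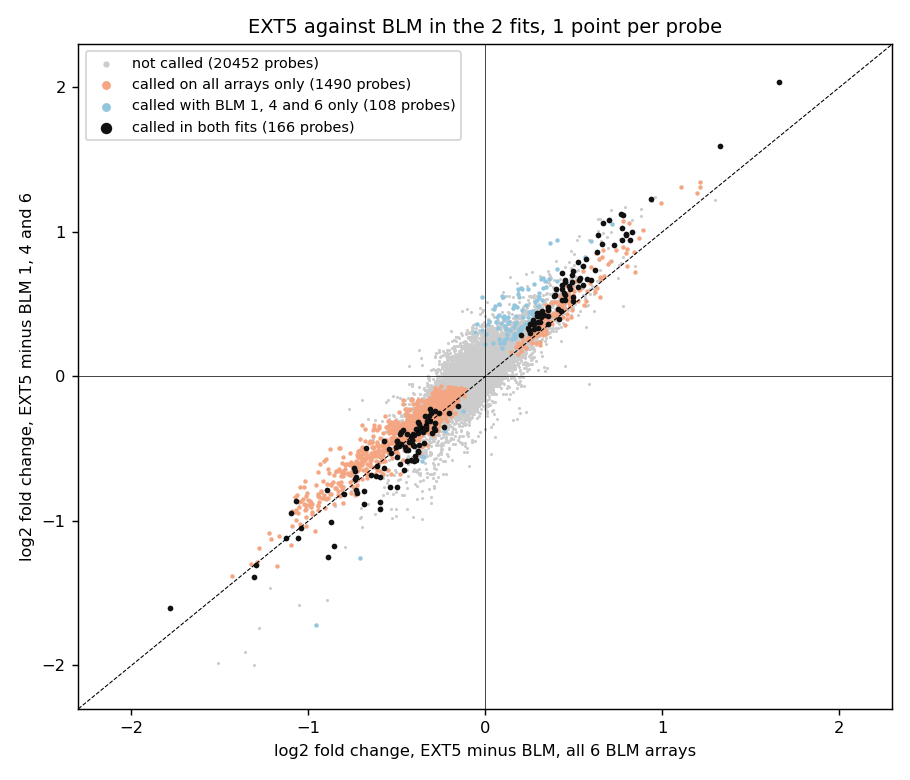
Each point is a probe, with its log2 difference (EXT5 minus BLM) with all arrays on the horizontal axis and against BLM 1, 4 and 6 on the vertical axis, and the 166 probes called in both fits in black. The dashed line marks equal differences, and all black points lie in the quadrants of equal sign.

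*Spon2*, which encodes the secreted extracellular matrix protein spondin 2 (mindin), had the largest decrease among genes called in both fits. Its signal was 9.35, 9.57 and 9.86 (lowest, median and highest) in EXT5 mice, against 11.78, 11.06 and 10.81 in BLM 1, 4 and 6, and 11.21, 12.04 and 11.46 in BLM 2, 3 and 5. Every EXT5 array lay below every BLM array of either run. The difference was -1.61 ± 0.19 (SE) within the run, a signal 3.04-fold lower (limma adjusted p = 0.001371), and -1.78 ± 0.16 with all arrays (limma adjusted p = 2.059e-06). The saline arrays of the same run lay between 10.94 and 11.48 and the EXT9 arrays between 9.20 and 9.82, so EXT5 mice also lay below mice that had received no BLM. *Spon2* lies on chromosome 5, and its second probe on the chip was too dim to be tested. Groups that do not overlap were rare among lower probes with all 12 arrays (3.37% of probes) and less so against the 3 BLM arrays of the run (5.0%). The corresponding shares of higher probes were 0.612% and 5.75%.

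*Acta2*, the smooth muscle actin that also marks myofibroblasts, followed in size. Its most changed probe had 7.99, 8.42 and 9.17 (lowest, median and highest) in EXT5 mice, against 9.83, 9.91 and 9.83 in BLM 1, 4 and 6 and 9.68, 9.38 and 10.04 in BLM 2, 3 and 5. Again no EXT5 array reached any BLM array. The signal was 2.62-fold lower within the run (-1.39 ± 0.25, limma adjusted p = 0.01787) and the difference was -1.31 ± 0.20 with all arrays (limma adjusted p = 0.001444). All 4 probes of *Acta2* that passed the level filter were lower, with differences of -1.05 to -1.39 within the run. On that probe the saline arrays of the run lay between 9.03 and 10.29, and the EXT9 arrays between 8.32 and 8.95.

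**Figure D2:**
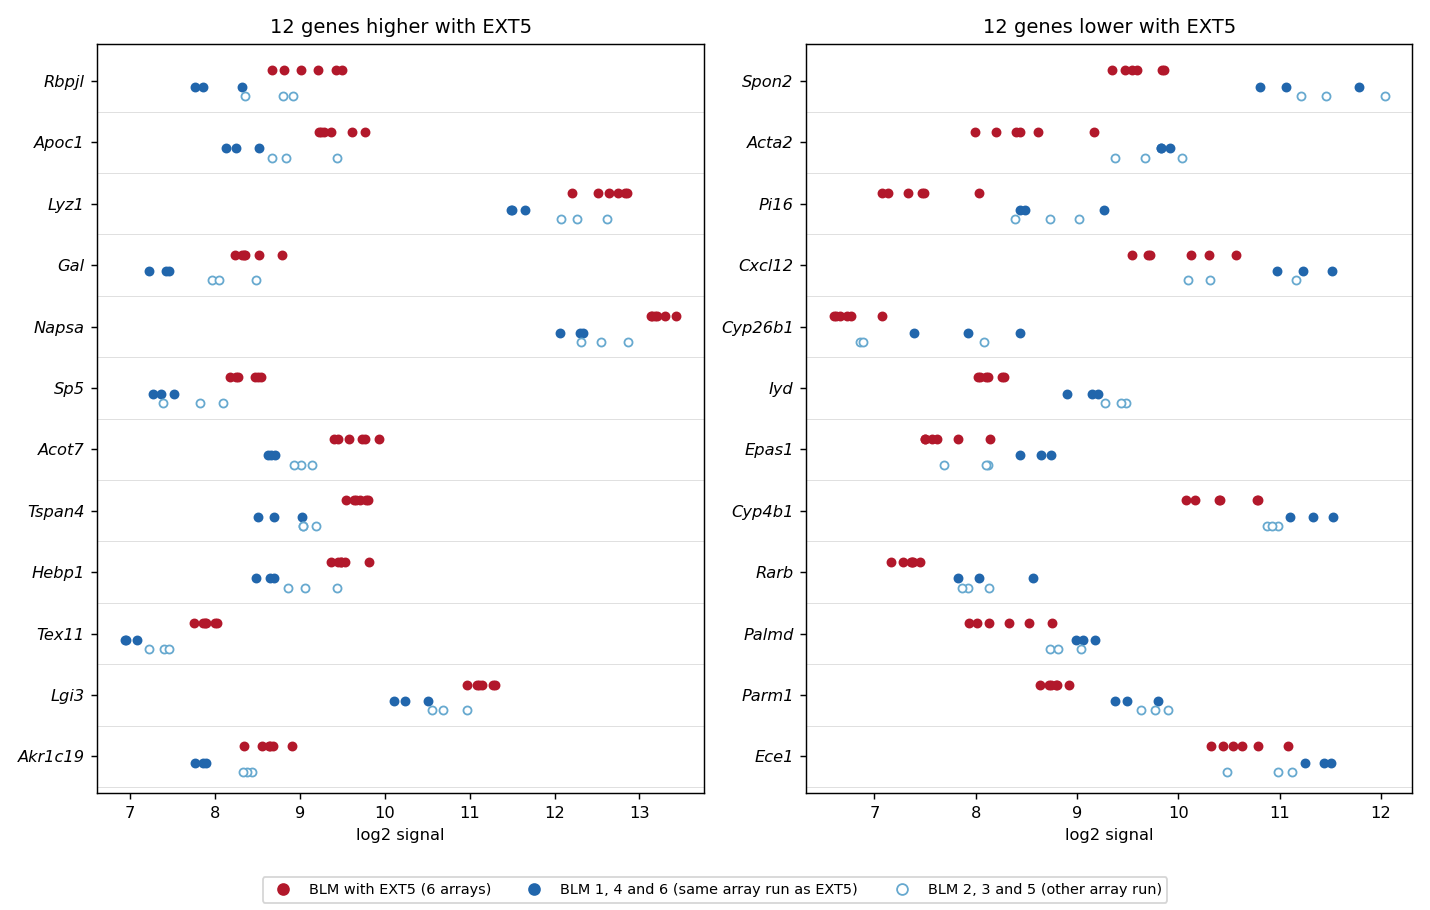
Log2 signal (horizontal axis) of the 12 genes with the largest increases (left) and the 12 with the largest decreases (right) on each array, 1 point per array, with EXT5 arrays above BLM 1, 4 and 6 (same run) and BLM 2, 3 and 5 (other run, open circles) in each row. *Spon2*, *Acta2* and *Rarb* show every EXT5 array below every BLM array, and *Napsa* every EXT5 array above.

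The smooth muscle genes were lower as a group with all arrays. Of 14 contractile genes tested, 11 fell and 0 rose in EXT5 mice with all arrays, where 6.46% of all probes fell and 0.995% rose, and 13 of the 14 differences were below 0 in both fits. Their median difference was -0.43 with all arrays, against -0.05 over all probes, and -0.42 within the run, against 0.00. The genes that fell were *Acta2*, *Actg2* (-1.21 ± 0.27, adjusted p = 0.009668), *Myh11*, the smooth muscle myosin heavy chain (-1.10 ± 0.23, adjusted p = 0.007883), *Myl9* (-0.89 ± 0.17, adjusted p = 0.005853), *Des*, *Lmod1*, *Smtn*, *Mylk*, *Tagln*, *Hspb6* and *Myocd* (limma, all arrays). Within the run only *Acta2* and *Myocd* passed, and *Myh11* had -1.16 ± 0.31 with an adjusted p of 0.06942. The mean over the 14 genes was 9.06 to 9.56 on the EXT5 arrays, against 9.78 to 9.83 on BLM 1, 4 and 6 and 9.77 to 9.96 on BLM 2, 3 and 5, with no overlap. It was 9.43 to 10.26 on the saline arrays of the run and 9.23 to 9.46 on the EXT9 arrays. EXT5 3 was the highest of the EXT5 arrays.

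*Myocd* and *Srf* fell as well. *Myocd* encodes myocardin, the co-activator that works with serum response factor, the product of *Srf*, on DNA elements called CArG boxes. *Myocd* had a difference of -0.58 ± 0.12 within the run and -0.42 ± 0.11 with all arrays (limma adjusted p = 0.0286 and 0.02542). *Srf* was among 20 genes named after their values had been seen. It had 9.02, 9.11 and 9.30 (lowest, median and highest) in EXT5 mice, against 9.54, 9.62 and 9.63 in BLM 1, 4 and 6 and 9.89, 9.74 and 9.93 in BLM 2, 3 and 5. The groups did not overlap, with a difference of -0.45 ± 0.07 within the run (limma adjusted p = 0.006169) and -0.57 ± 0.11 with all arrays (limma adjusted p = 0.005853). *Lasp1*, an actin-binding protein gene, *Lmcd1*, a muscle LIM protein gene, and *Ckb*, the brain-type creatine kinase gene, were chosen in the same way and fell within the run by 0.70, 0.51 and 0.66 on the log2 scale. *Mustn1*, a small muscle nuclear protein gene, had -0.57 within the run (adjusted p = 0.09543) and fell by 0.68 with all arrays (adjusted p = 0.004928).

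The 250 bases before the start of *Srf* are shown because they carry the element that its own product binds. The sequence is from RefSeq, build GRCm38.p6, chr17:46556163-46556412, minus strand, printed 5′ to 3′ with 2 CArG boxes in capitals, whose first bases lie 82 and 62 bases before the start.
Srf promoter: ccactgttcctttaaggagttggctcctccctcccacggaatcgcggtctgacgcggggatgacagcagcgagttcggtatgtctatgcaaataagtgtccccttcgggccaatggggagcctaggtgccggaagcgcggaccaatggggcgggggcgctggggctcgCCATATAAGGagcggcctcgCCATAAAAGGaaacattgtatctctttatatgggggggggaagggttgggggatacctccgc
Only exact CArG boxes were counted (CCWWWWWWGG, with W for A or T, both strands read). Such a box was found in 1.47% of 32851 such windows of 27025 genes. Among the other genes of this kind in the table, *Myl9* and *Lmcd1* had an exact box. *Acta2*, *Des*, *Lmod1*, *Mylk*, *Smtn*, *Hspb6*, *Lasp1* and *Mustn1* had no exact box in the window. Boxes with a C or G among the W letters were not searched, so these genes may still hold one. A match is a description of the letters and was not tested as a binding site.

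*Rarb* and *Cyp26b1*, both among the 12 genes with the largest decreases, fell in EXT5 mice. Retinoic acid, made from vitamin A, binds nuclear receptors, and *Rarb*, for one of these receptors, and *Cyp26b1*, for an enzyme that degrades retinoic acid, are known targets of the signal. *Rarb* had 7.17, 7.37 and 7.45 (lowest, median and highest) in EXT5 mice, against 8.56, 8.04 and 7.82 in BLM 1, 4 and 6 and 7.93, 8.13 and 7.87 in BLM 2, 3 and 5. Every EXT5 array lay below every BLM array. The difference was -0.81 ± 0.18 within the run (limma adjusted p = 0.03856) and -0.72 ± 0.14 with all arrays (limma adjusted p = 0.005853), and a second probe of *Rarb* was lower by a like amount (-0.79 and -0.73). *Cyp26b1* had 6.60, 6.70 and 7.07 in EXT5 mice, close to the lowest signal on the arrays, against 8.43, 7.92 and 7.40 in BLM 1, 4 and 6 and 6.86, 8.09 and 6.89 in BLM 2, 3 and 5. BLM 2 and 5 were nearly as low as the EXT5 arrays, so the groups overlapped only in the other run. The difference was -1.17 ± 0.15 within the run (limma adjusted p = 0.001861) and -0.85 ± 0.19 with all arrays (limma adjusted p = 0.009535). For *Cyp26b1* the saline arrays of the run lay between 6.76 and 7.07. For *Rarb*, saline 2, 4 and 6 had 8.20, 8.36 and 7.35, the last within the EXT5 range. With 1 array left out, *Rarb* passed in 1 of 9 fits within the run and in 12 of 12 with all arrays.

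The region before the start of *Rarb* is shown because it holds the element that retinoic acid receptors bind. The sequence is from RefSeq, build GRCm38.p6, chr14:16575477-16575726, minus strand, printed 5′ to 3′, with a match to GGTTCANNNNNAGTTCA in capitals, 53 bases before the start.
Rarb promoter: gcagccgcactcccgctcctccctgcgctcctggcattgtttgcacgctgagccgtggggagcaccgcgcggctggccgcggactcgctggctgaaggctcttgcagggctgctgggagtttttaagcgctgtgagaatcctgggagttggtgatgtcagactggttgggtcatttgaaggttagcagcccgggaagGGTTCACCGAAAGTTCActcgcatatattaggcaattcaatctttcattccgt
These exact letters were found in 2 of the 32851 windows (0.00609%, both strands read), and not in the window of *Cyp26b1*. Other spellings of the element were not searched, so the share does not count every window that may hold one. The match was not tested as a binding site.

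Other genes lower in EXT5 mice fell into those low against all BLM arrays and those low mainly against BLM 1, 4 and 6. *Pi16*, a peptidase inhibitor gene of adventitial fibroblasts, had 7.08, 7.40 and 8.03 (lowest, median and highest) in EXT5 mice, against 9.26, 8.44 and 8.48 in BLM 1, 4 and 6 and 8.39, 8.73 and 9.02 in BLM 2, 3 and 5. It fell by 1.30 ± 0.30 on the log2 scale within the run (limma adjusted p = 0.04183), without overlap. *Iyd*, which encodes iodotyrosine deiodinase, *Parm1*, which encodes a mucin-like membrane protein, and *Cyp4b1*, a cytochrome P450 gene of club cells, also fell without overlap, by 0.94 ± 0.22, 0.79 ± 0.19 and 0.88 ± 0.19 within the run. In contrast, *Cxcl12*, a chemokine gene, had 9.55, 9.93 and 10.57 in EXT5 mice, against 10.97, 11.23 and 11.52 in BLM 1, 4 and 6 and 10.10, 10.31 and 11.16 in BLM 2, 3 and 5. It fell by 1.25 ± 0.26 within the run (limma adjusted p = 0.03155), although its other 2 tested probes did not pass. *Epas1*, which encodes hypoxia-inducible factor 2 alpha, and *Ece1*, which encodes the enzyme that makes active endothelin, followed the same course. *Epas1* had 7.50, 7.59 and 8.14 in EXT5 mice, against 8.44, 8.75 and 8.64 in BLM 1, 4 and 6 and 7.69, 8.12 and 8.11 in BLM 2, 3 and 5. *Ece1* and *Palmd*, a palmdelphin gene, fell by 0.77 and 0.80 within the run and overlapped with BLM 2, 3 or 5. The second tested probes of *Iyd*, *Parm1*, *Epas1*, *Ece1* and *Palmd* did not pass within the run. With all arrays they passed, except that of *Ece1*. On saline 6 of the run, *Pi16*, *Iyd* and *Parm1* had 7.22, 8.28 and 8.89, each within the EXT5 range. They had 8.65, 9.88 and 9.99 on saline 2 and 9.02, 9.28 and 9.87 on saline 4. *Ntn4*, *Igfbp4*, *Reln* and *Adamts15*, all for secreted or matrix proteins and named after their values had been seen, fell within the run by 0.69, 0.63, 0.62 and 0.49.

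Endothelial markers were low against BLM 1, 4 and 6 but not against BLM 2, 3 and 5. All 14 tested markers had negative differences within the run (median -0.70, against 0.00 over all probes), of which *Cxcl12* and *Vwf*, the von Willebrand factor gene, passed. With all arrays the median over 13 markers was -0.31, and *Cxcl12* alone passed. *Cxcl12* is also among the 12 genes with the largest decreases, and the lists were chosen with earlier results of these data known. Over all probes, 0.464% fell within the run and 6.46% with all arrays. *Vwf* fell by 0.82 within the run (limma adjusted p = 0.02516) and has no value with all arrays, since its probe is among the misplaced ones. The mean over 13 markers was 9.32 to 10.3 on the EXT5 arrays, against 10.21, 10.58 and 10.63 on BLM 1, 4 and 6 and 9.34, 9.79 and 10.15 on BLM 2, 3 and 5. The BLM arrays of the other run thus lay within the range of the EXT5 arrays. *Pecam1*, the defining endothelial gene, had -0.97 ± 0.39 within the run (adjusted p = 0.2148) and -0.41 ± 0.35 with all arrays (adjusted p = 0.5034). Whether the other markers of the list had a part in the lower *Epas1*, *Ece1* and *Cxcl12* was not tested.

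Airway markers were lower with all arrays. Of 15 tested ciliated cell markers, 12 fell with all arrays (6.46% of all probes did) and 0 within the run (0.464% of all probes), with medians of -0.83 and -0.72 and 14 of 15 differences below 0 in both fits. *Rsph1*, of the ciliary radial spoke, had -1.07 ± 0.21 with all arrays (limma adjusted p = 0.005853) and -0.92 ± 0.27 within the run (adjusted p = 0.09328), and *Tekt1*, of ciliary microtubules, had -0.98 ± 0.20 (adjusted p = 0.008011) and -0.90 ± 0.28 (adjusted p = 0.1112). The transcription factor *Foxj1* did not pass in either fit (-0.21 in both). The mean over the 15 markers was 8.35 to 8.996 on the EXT5 arrays, below all 6 BLM arrays. It was 9.64, 9.17 and 9.01 on BLM 1, 4 and 6, and 9.60, 9.32 and 9.58 on BLM 2, 3 and 5. The highest EXT5 array lay next to BLM 6. Saline 2, 4 and 6 of the run had 9.72, 9.77 and 8.63, the last within the EXT5 range. Club cell markers showed 3 lower of 9 with all arrays, against 6.46% of all probes (*Sec14l3*, *Cldn10* and *Cyp4b1*) and *Cyp4b1* alone within the run, and all 9 differences were below 0. The defining club cell gene *Scgb1a1* had 13.79 to 14.18 in EXT5 mice and 14.06 to 14.49 in BLM mice, and did not pass. The mean over the 9 club cell markers was 11.85 to 12.52 on the EXT5 arrays. It was 12.26 to 12.87 on BLM 1, 4 and 6 and 12.53 to 12.96 on BLM 2, 3 and 5. Saline 2, 4 and 6 had 12.53, 12.97 and 11.81, the last below every EXT5 array.

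Larger airways carry smooth muscle, ciliated and club cells together, and heart-type muscle surrounds the pulmonary veins of mice. The cardiac genes are therefore given beside them. All 10 tested cardiac genes had negative differences in both fits (medians -0.66 within the run and -0.41 with all arrays), and *Actc1*, the cardiac actin gene, fell by 1.32 with all arrays (adjusted p = 0.01006). The mean over the 10 genes ranged from 7.20 to 8.50 on the EXT5 arrays. It was 9.53, 7.29 and 7.77 on BLM 1, 4 and 6 and 7.63, 7.42 and 8.57 on BLM 2, 3 and 5. On saline 2, 4 and 6 of the run it was 7.74, 9.23 and 7.20. EXT5 3, the highest EXT5 array in the smooth muscle, ciliated and club cell lists, was also the highest here. Their part in the lower *Acta2*, *Srf* and *Spon2* was not tested. The 4 cartilage genes tested, of larger airways, held *Chad*, which fell with all arrays (-1.43), and none that passed within the run.

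**Figure D3:**
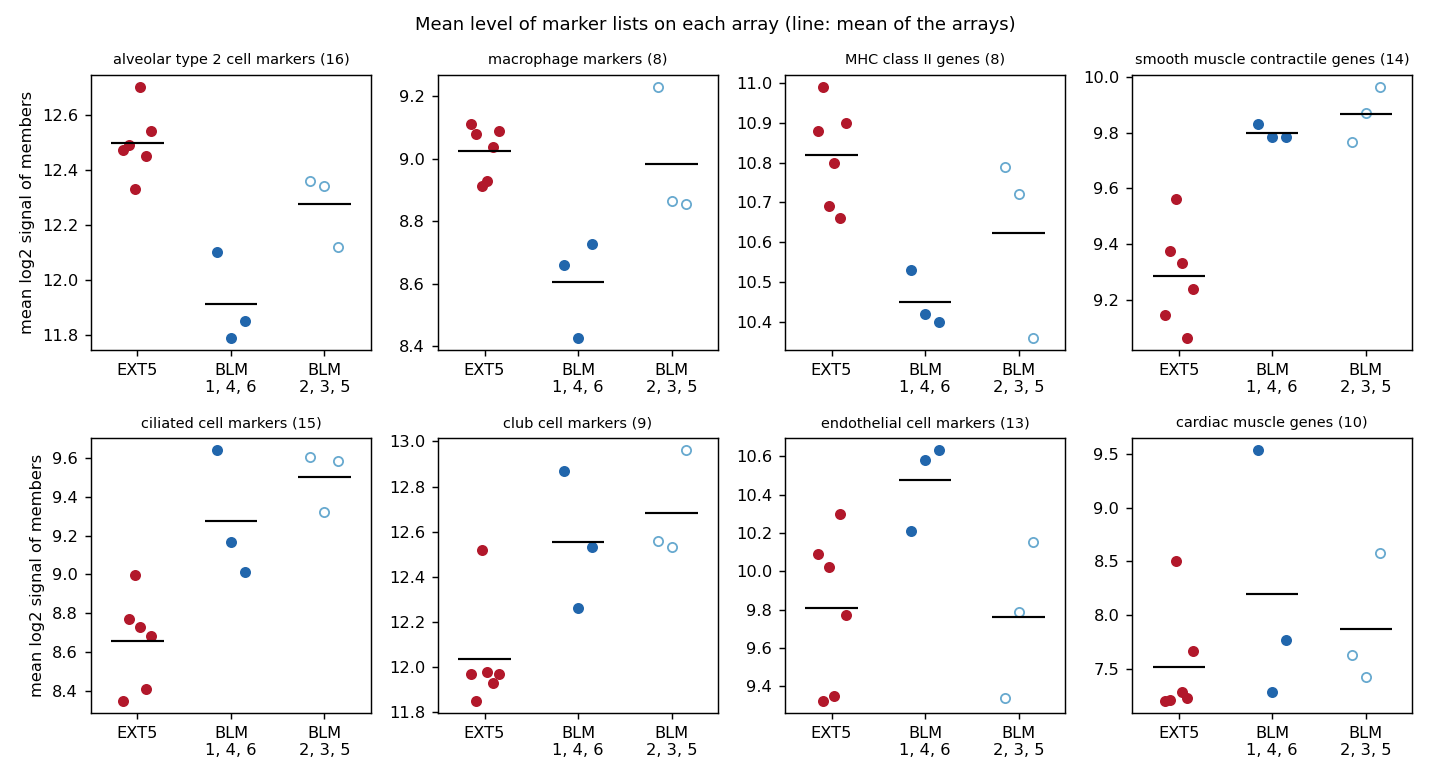
Mean log2 signal over the tested members of marker lists on each EXT5 array, each BLM array of the same run and each BLM array of the other run. Smooth muscle and ciliated lists lie below all BLM arrays in EXT5 mice, and the endothelial list lies below BLM 1, 4 and 6 on all EXT5 arrays except EXT5 5 while it overlaps BLM 2, 3 and 5. Lines mark the mean of the arrays shown.

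Type 2 cell genes were higher in EXT5 mice, though not all of them. *Napsa*, an aspartic protease that processes surfactant protein B, had 13.13, 13.19 and 13.43 (lowest, median and highest) in EXT5 mice, against 12.34, 12.06 and 12.30 in BLM 1, 4 and 6 and 12.55, 12.87 and 12.31 in BLM 2, 3 and 5. Every EXT5 array lay above every BLM array. The signal was 2.00-fold higher within the run (1.00 ± 0.19, limma adjusted p = 0.02059) and the difference was 0.83 ± 0.16 with all arrays (limma adjusted p = 0.005853). All 3 tested probes of *Napsa* were higher and did not overlap, and the most changed of them was 3.02-fold higher within the run (1.60 ± 0.36, limma adjusted p = 0.03634) and 1.32 ± 0.29 higher with all arrays. Within the run, where 0.799% of all probes rose, 5 of 16 tested type 2 markers rose and 0 fell: *Napsa*, *Sftpa1*, a surfactant protein gene (0.66 ± 0.15), *Slc34a2*, a phosphate transporter gene (0.94 ± 0.19), *Lpcat1*, which makes surfactant phospholipid (0.66 ± 0.13), and *Hc*, complement C5 (1.05 ± 0.25). With all arrays, where 0.995% of all probes rose, the 5 that rose were *Napsa*, *Sftpb*, *Lamp3*, *Etv5* and *Lcn2*, and 1 fell. The most abundant surfactant gene *Sftpc* did not pass (0.16 ± 0.09 within the run, -0.05 ± 0.13 with all arrays). The list's median difference was 0.56 within the run and 0.42 with all arrays. The list's mean was 12.33 to 12.7 on the EXT5 arrays, against 12.1, 11.79 and 11.85 on BLM 1, 4 and 6 and 12.36, 12.34 and 12.12 on BLM 2, 3 and 5, so that BLM 2 and 3 overlapped with the EXT5 arrays. On saline 2, 4 and 6 of the same run the list's mean was 11.75, 11.51 and 12.35. *Napsa* had 11.73, 11.54 and 12.84 there, on the probe described first. Saline 6 thus reached the EXT5 range for the list but not for that probe. None of the type 1 markers passed, and their median was 0.00 in size in both fits.

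The member that fell with all arrays was *Lyz1*, a lysozyme gene, whose 3 tested probes did not move the same way. The largest change of the 166 probes was on its dimmest probe, with 11.52, 11.85 and 12.30 (lowest, median and highest) in EXT5 mice, against 10.05, 9.94 and 9.64 in BLM 1, 4 and 6 and 10.74, 10.92 and 10.23 in BLM 2, 3 and 5. Every EXT5 array lay above every BLM array, and the signal was 4.09-fold higher within the run (2.03 ± 0.41, limma adjusted p = 0.02599, and 1.66 ± 0.33, limma adjusted p = 0.006477, with all arrays). The probe with the smallest p-value had 12.20, 12.69 and 12.85 in EXT5 mice, against 11.65, 11.50 and 11.49 in BLM 1, 4 and 6 and 12.08, 12.62 and 12.27 in BLM 2, 3 and 5, and was higher by 1.08 ± 0.18 within the run (limma adjusted p = 0.01251). The brightest probe, near the top of the signal range, was 13.98 to 14.38 in EXT5 mice and 14.28 to 14.98 in BLM mice (-0.23, adjusted p = 0.1931, within the run and -0.43, adjusted p = 0.01081, with all arrays). On the dimmest probe, saline 2, 4 and 6 of the run had 9.785, 9.084 and 11.96, the last within the EXT5 range. *Lyz1* and *Lyz2* are near-identical in sequence, and the direction for lysozyme differed between probes. *Lcn2*, which encodes the iron-siderophore binding protein lipocalin 2, had a difference of 1.31 ± 0.32 within the run (adjusted p = 0.05412) and rose by 1.21 ± 0.24 with all arrays (limma adjusted p = 0.006477).

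The other genes that rose most had mixed roles. *Apoc1*, an apolipoprotein gene, had 9.23, 9.32 and 9.77 (lowest, median and highest) in EXT5 mice, against 8.52, 8.13 and 8.25 in BLM 1, 4 and 6 and 9.43, 8.84 and 8.67 in BLM 2, 3 and 5. It rose by 1.12 ± 0.16 within the run (limma adjusted p = 0.004061) and by 0.78 ± 0.17 with all arrays (limma adjusted p = 0.009463), and BLM 2 alone reached the EXT5 arrays. *Tspan4*, a tetraspanin gene, had 9.54, 9.69 and 9.80 in EXT5 mice, against 8.51, 9.02 and 8.70 in BLM 1, 4 and 6 and 9.19, 9.04 and 9.04 in BLM 2, 3 and 5. It had the smallest p-value within the run among the 24 genes named for size (0.95 ± 0.10, limma adjusted p = 0.0004368), with no overlap, although its dimmer probes did not pass. *Tex11*, known for a role in meiosis, *Sp5*, a transcription factor gene of Wnt signalling, and *Acot7*, an acyl-CoA thioesterase gene, likewise rose without overlap, by 0.91 ± 0.11, 0.99 ± 0.20 and 0.98 within the run. None of the other tested probes of *Acot7* passed within the run, although all did with all arrays, and ILMN_2632264 and ILMN_2807084 overlapped with BLM arrays. On saline 2, 4 and 6 of the run, *Sp5* had 7.07, 7.28 and 8.38 and the named *Acot7* probe 8.56, 8.41 and 9.63. Saline 6 lay within the EXT5 range of both. *Hebp1*, a haem-binding protein gene, *Gal*, which encodes the neuropeptide galanin, *Rbpjl*, a paralogue of the Notch mediator Rbpj, *Lgi3*, a secreted leucine-rich repeat protein gene, and *Akr1c19*, an aldo-keto reductase gene, rose by 0.91, 1.06, 1.12, 0.86 and 0.79 and overlapped with BLM 2, 3 or 5. Of all 24 genes, 12 showed no overlap between the 6 EXT5 and the 6 BLM arrays, and all 24 none with BLM 1, 4 and 6. The 24 were chosen by calls in both fits and by size within the run, so neither count is independent of the choice. Over all probes, 0.612% were higher and 3.37% lower without overlap against the 6 BLM arrays. Against BLM 1, 4 and 6 the shares were 5.75% and 5.0%. *Tspan4*, *Tex11*, *Spon2* and *Cyp26b1* passed in every alternative run for them, whereas *Lgi3*, *Iyd* and *Parm1* lost the call within the run whichever array was left out.

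Macrophage and antigen presentation genes were higher by small amounts. All 8 tested macrophage markers had positive differences within the run (median 0.29), and *Adgre1*, which encodes the F4/80 antigen, rose by 0.61 ± 0.13 (limma adjusted p = 0.03255), but none passed with all arrays (median 0.18). All 8 MHC class II genes were positive as well, with medians of 0.32 and 0.24. *H2-DMb1*, which helps load peptide onto class II molecules, had 10.17, 10.39 and 10.52 (lowest, median and highest) in EXT5 mice, against 9.83, 9.57 and 9.71 in BLM 1, 4 and 6 and 10.12, 9.99 and 9.81 in BLM 2, 3 and 5. It rose by 0.67 ± 0.09 within the run (limma adjusted p = 0.001861) and 0.53 ± 0.09 with all arrays (limma adjusted p = 0.002947), without overlap. *H2-Aa* rose within the run (0.61 ± 0.11), and *H2-DMa* with all arrays (0.50 ± 0.14). Of all probes, 0.799% rose within the run and 0.995% with all arrays. The macrophage mean was 8.91 to 9.11 on the EXT5 arrays, against 8.43 to 8.73 on BLM 1, 4 and 6 and 8.85 to 9.23 on BLM 2, 3 and 5, so the higher level held against one run's BLM arrays only. Mesothelial markers had a median of 0.57 within the run and 0.28 with all arrays, and none passed. *Tfrc*, the transferrin receptor gene, *Capg*, an actin-capping protein gene of macrophages, *Fkbp11*, a chaperone gene of the secretory pathway, and *Hkdc1*, a hexokinase-related gene, were named after their values had been seen and rose by 0.66, 0.71, 0.63 and 0.77 within the run.

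Several clock genes differed between the groups. The circadian clock is a loop in which BMAL1, the product of *Arntl*, and CLOCK bind E-boxes (CACGTG) and switch on genes such as *Dbp*, *Ciart*, *Nr1d2* and the *Per* genes, whose products act back on the loop, so that *Arntl* and *Dbp* peak at opposite times of day. *Dbp* had 12.53, 12.64 and 13.01 (lowest, median and highest) in EXT5 mice and 11.87, 12.22 and 12.29 in BLM mice. *Ciart* had 7.84, 7.94 and 8.16 in EXT5 mice and 7.14, 7.36 and 7.60 in BLM mice. *Arntl* had 6.66, 6.76 and 6.94 in EXT5 mice and 7.05, 7.14 and 7.26 in BLM mice. *Dbp* and *Ciart* were higher and *Arntl* was lower on every EXT5 array than on any BLM array of either run. The EXT5 signals of *Arntl* lay on both sides of the level filter for the mean (6.681), near the lowest signal on the arrays. Within the run the differences were 0.67 ± 0.15 for *Dbp*, 0.67 ± 0.12 for *Ciart* and -0.32 ± 0.07 for *Arntl* (limma adjusted p = 0.03579, 0.01921 and 0.03098), and all 3 passed with all arrays. *Nr1d2*, which encodes REV-ERB beta, had 9.03, 9.37 and 9.58 in EXT5 mice, against 8.55, 8.74 and 8.59 in BLM 1, 4 and 6, and rose by 0.74 ± 0.15 (limma adjusted p = 0.02619), with no value from all arrays because its probe is among the misplaced ones. *Clock* passed with all arrays only (-0.39, adjusted p = 0.04851). *Per1*, *Per3* and *Nr1d1* had 0.00, -0.04 and 0.15 within the run and did not pass, nor did *Per2* (0.47 within the run and 0.50 with all arrays) and *Tef* (0.33 and 0.40). The hour of tissue collection in each group is not given in the sources used here.

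The sequence before *Ciart* is shown because it holds 3 E-boxes, the element of the clock's activators. It is from RefSeq, build GRCm38.p6, chr3:95882229-95882478, minus strand, printed 5′ to 3′, with the E-boxes in capitals at 116, 58 and 44 bases before the start.
Ciart promoter: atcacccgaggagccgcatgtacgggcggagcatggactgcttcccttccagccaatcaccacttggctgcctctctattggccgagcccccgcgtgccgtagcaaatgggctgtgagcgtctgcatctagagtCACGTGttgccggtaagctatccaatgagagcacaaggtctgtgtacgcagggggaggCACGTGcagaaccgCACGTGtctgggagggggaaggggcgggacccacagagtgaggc
CACGTG, which reads the same on both strands, was found in 6.02% of the 32851 windows. Among the other clock genes in the table, *Tef* and *Per1* had windows with it, and *Dbp*, *Arntl*, *Nr1d1*, *Nr1d2* and *Clock* had none in the 250 bases.

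**Figure D4:**
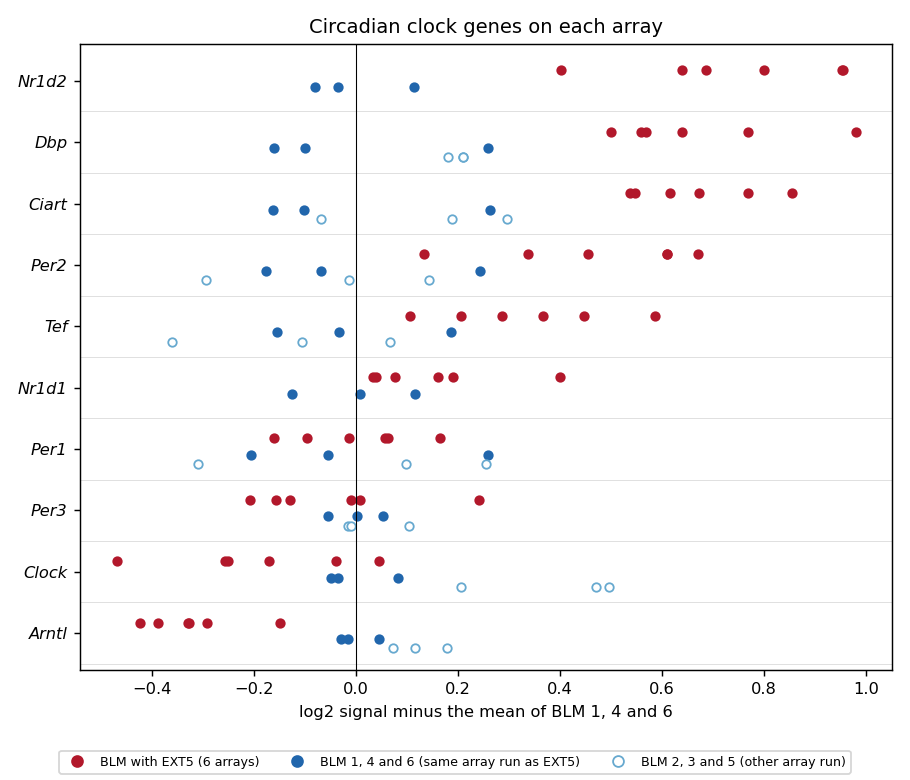
Log2 signal of 10 clock genes on each array, minus the mean of BLM 1, 4 and 6 (horizontal axis), with EXT5 arrays above BLM arrays in each row and no points of BLM 2, 3 and 5 for misplaced probes. *Dbp* and *Ciart* lie higher and *Arntl* lower on all EXT5 arrays than on all BLM arrays, whereas *Per1* and *Nr1d1* overlap.

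Among genes of the DNA damage response, 1 passed. *Cdkn1a*, which encodes the cell cycle inhibitor p21, averaged 9.60 ± 0.15 over its 3 probes in EXT5 mice and 9.57 ± 0.16 in BLM mice (SD, n = 6 each). The difference was 0.03 (95% interval -0.18 to 0.23, exact two-sided permutation p = 0.766), and against BLM 1, 4 and 6 it was 0.00 (95% interval -0.25 to 0.25, exact p = 1). Of 17 tested p53 target genes, *Mdm2* alone passed, where 6.46% of all probes fell with all arrays and 0.464% within the run. *Mdm2*, whose product marks p53 for degradation, had 9.90, 10.08 and 10.17 (lowest, median and highest) in EXT5 mice and 10.33, 10.58 and 10.72 in BLM mice, without overlap. It fell by 0.49 ± 0.12 within the run (limma adjusted p = 0.04779) and by 0.51 ± 0.10 with all arrays (limma adjusted p = 0.005853), whereas the list's medians were -0.02 and -0.06. *Phlda3* and *Igfbp2* did not pass on any probe tested.

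Of 13 tested genes of mitosis and cytokinesis, 12 had positive differences within the run (median 0.15), of which *Bub1b*, a spindle checkpoint kinase gene, passed in both fits (0.37 ± 0.09, adjusted p = 0.04763, and 0.25 ± 0.08, adjusted p = 0.0479, limma). *Prc1*, which bundles microtubules at the end of mitosis, rose with all arrays (0.38 ± 0.10, adjusted p = 0.02484) and had 0.42 ± 0.13 within the run (adjusted p = 0.1034). Over all probes, 0.799% rose within the run and 0.995% with all arrays. *Cdc6* and *Tk1*, of DNA replication and nucleotide salvage, were named after their values had been seen and rose by 0.32 and 0.43 within the run.

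Transcripts of the serotonin system gave no call. *Htr2b*, the receptor that EXT5 blocks, had 6.60, 6.70 and 6.80 (lowest, median and highest) in EXT5 mice and 6.76, 6.79 and 6.90 in BLM mice. These values lie on both sides of the level filter for the mean (6.681), near the lowest signal on the arrays, and the difference was -0.10 within the run (adjusted p = 0.5155) and -0.11 with all arrays (adjusted p = 0.2088). *Htr2a* and *Htr2c*, the other receptors of the same subfamily, were too dim to be tested. *Slc6a4*, the serotonin transporter gene, *Ddc* and *Maob*, of serotonin synthesis and breakdown, did not pass.

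Few matrix genes other than *Spon2* passed, where 6.46% of all probes fell with all arrays and 0.464% within the run. Of 28 tested collagen, elastic fibre and other matrix genes, *Spon2* alone passed within the run, and *Fbln2*, a fibulin of elastic fibres (-0.47 ± 0.12), and *Mmp14*, a membrane-bound matrix protease gene (-0.53 ± 0.11), fell with all arrays as well. The median was -0.03 within the run and -0.09 with all arrays, with 13 differences above 0 and 15 below 0 within the run, up to 0.48 ± 0.15 for *Mfap5*, a microfibril gene named after its value was seen (adjusted p = 0.1246). *Col1a1*, *Col3a1* and *Fn1* had -0.02 ± 0.22, 0.47 ± 0.20 and 0.25 ± 0.25 within the run, and -0.09 ± 0.17, -0.03 ± 0.26 and 0.01 ± 0.20 with all arrays. *Eln*, the elastin gene, had -0.42 ± 0.28 and -0.58 ± 0.23 and did not pass. None of the 8 tested TGF-beta response genes passed in either fit (medians 0.01 and -0.08). Of 13 fibroblast and pericyte markers, *Pi16* fell in both fits, and *Pdgfrb*, *Cspg4* and *Ces1d* with all arrays only. Over all probes, 0.423% fell in both fits and 6.46% with all arrays.

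Few calls came from the other lists. *Lss*, which encodes lanosterol synthase, rose in both fits (0.36 and 0.28), and *Fdps*, of the same cholesterol pathway, with all arrays (0.47, adjusted p = 0.01246). *Pmvk*, a mevalonate pathway gene named after its values had been seen, rose by 0.36 within the run. *Elovl1*, *Zbtb16*, *Ifit3* and *Xbp1* rose and *Pdk4*, *Usp18*, *Hsph1*, *Creld2*, *Cyp1b1*, *Ugt1a6a* and *Cd8b1* fell with all arrays, none of them within the run. The lists of neutrophil, NK cell, B cell, erythroid, adipocyte, skeletal muscle, immediate early and inflammatory genes held no call in either fit. *Fos* had a difference of 1.00 with an adjusted p of 0.08882 with all arrays.

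**Figure D5:**
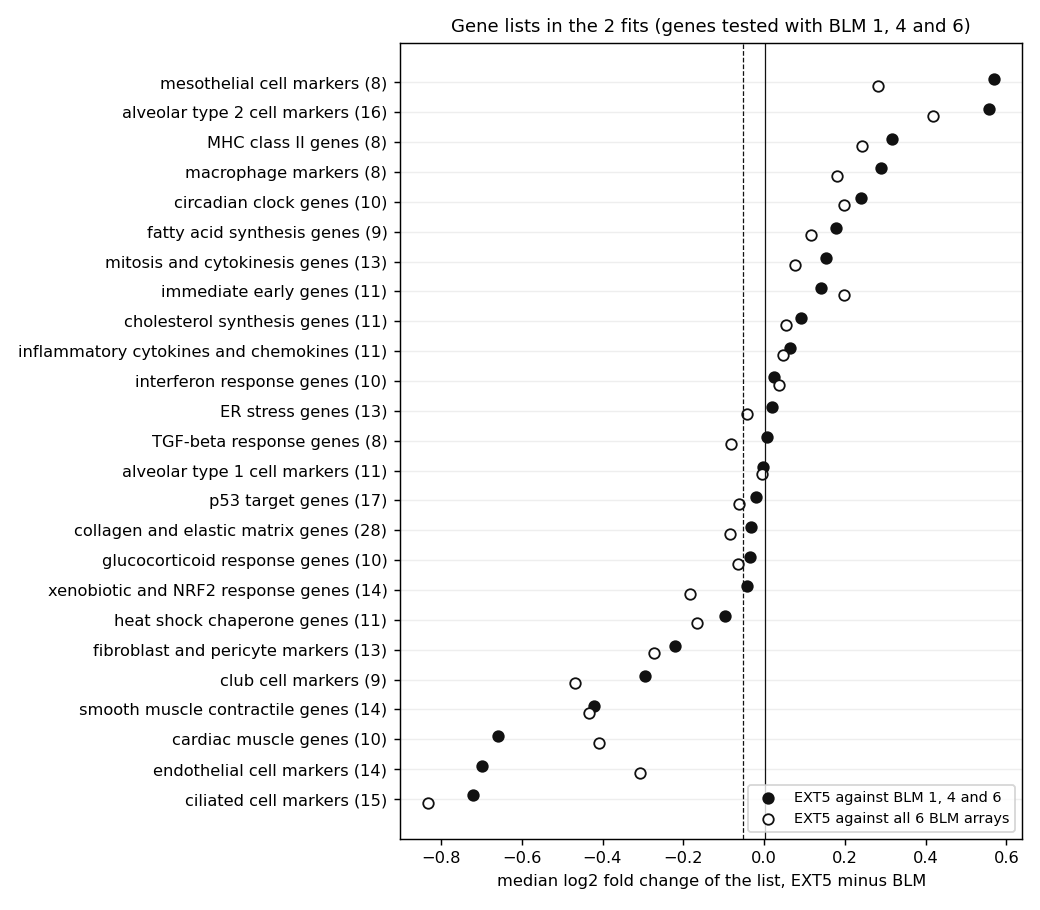
Median log2 difference (EXT5 minus BLM, horizontal axis) of the gene lists with at least 8 tested genes, against BLM 1, 4 and 6 (filled) and all 6 BLM arrays (open), with lines at the median of all probes tested (solid within the run, dashed with all arrays). Type 2 and mesothelial lists lie highest within the run, and ciliated, endothelial, cardiac and smooth muscle lists lowest, with the endothelial list nearer 0 when all arrays are used.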

How the data were processed

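Distal lung RNA of 24 mice was hybridized to Illumina MouseWG-6 v2 arrays. The authors deposited 1 table of signals (linear intensity, quantile normalized by the authors, apparently within each array run), and the software and background correction are not given in the sources used here. A second deposited table with 48 columns that name no sample was not used. Log2 was taken (pseudocount 0), and 50% of the 45281 probes with the higher mean over the 18 arrays of the EXT run (mean log2 above 6.681) were tested. Of all probes, 34885 had 1 gene symbol, 18 several and 10378 none in the platform annotation. Per the labels each array is 1 mouse. Runs were inferred from identical sorted values (largest correlation between arrays 0.9951). In 5 stretches of rows, signals of the other run appeared not to belong to their probes, and 752 rows (424 above the filter) were left out where that run was used.

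limma 3.58.1 (R 4.3.3, statmod 1.5.0) fitted the 4 group means, once over 24 arrays and once over 18, with Benjamini-Hochberg adjusted p under 0.05 as the call. The methods' own test (SAM against saline) is another contrast. Genes were named as the 12 highest and 12 lowest by difference within the run among those called in both fits (the probe with the smallest p within the run for each gene), up to 4 per list called in both fits, and *Cdkn1a*, *Gdf15* (no probe under that symbol), *Prc1*, *Phlda3*, *Igfbp2*, *Spon2* and *Htr2a*, *Htr2b* and *Htr2c*. For a list, the probe with the highest mean stands for its gene. 20 further genes were named after their values were seen. Members and lists were chosen with earlier results of these data known. Fits were tested on simulated data. Exact tests and tables used Python 3.11.15, scipy 1.17.1, pandas 2.3.3 and numpy 2.4.6. Alternatives were other scalings, filters, sample sets and variance models, blocks by run and replicate number, and leaving out each array.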

Additional observations from a re-analysis of the deposited data

Results flagged for a closer look

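In 124 groups of arrays (63 probes of the named genes), 2 held an array that stood apart from the rest of its group, and chance alone flags about 1 in 20 groups. For *Hebp1*, EXT5 2 was the highest of its group at 9.82, with the other EXT5 arrays at 9.37 to 9.53. For *Cyp26b1*, EXT5 1 was the highest at 7.07, with the other EXT5 arrays at 6.60 to 6.77. EXT5 2 thus lay away from BLM for *Hebp1*, and EXT5 1 toward BLM for *Cyp26b1*.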

How the results depend on the processing

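With all arrays, the count of probes higher in EXT5 mice (221) and lower (1435) was 416 and 869 after median centring, 523 and 725 after joint quantile normalization, and 506 and 414 with the array run as a block. They were 143 and 1186 without the level filter, 341 and 1608 with the 2 groups fitted alone, and 409 and 2145 with array weights. Leaving out 1 array gave 107 (without BLM 5) to 241 higher and 636 (without BLM 5) to 1762 (without BLM 6) lower. Within the run, the 181 higher and 105 lower became 93 and 51 without the filter, 454 and 384 with the 2 groups alone, 858 and 887 with array weights, and 21 (without BLM 6) to 157 higher and 10 (without BLM 6) to 109 lower with 1 array left out. The lowest totals were 38, 49 and 31 without BLM 1, 4 and 6, and 105 without EXT5 4. The 24 genes kept their direction in every alternative. With BLM 1, 4 or 6 left out, 8, 6 and 6 of them passed within the run.

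With the replicate number as a block, 212 probes were higher and 1404 lower with all arrays, and 9 higher and 8 lower within the run, where 4 of the 24 genes passed. Correlations of same-numbered EXT5 and BLM arrays were -0.28, 0.30, -0.30, -0.09, 0.10 and 0.26, so the numbers were not taken as pairs.

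Differences near 0 changed sign. For *Cdkn1a*, probe ILMN_2634083 had 0.018 with the replicate block within the run, and 0.020, 0.039 and 0.051 with median centring, joint quantile normalization and the run block over all arrays. Leaving out 1 array gave it -0.11 to 0.065 within the run and -0.079 to 0.027 with all arrays, and gave ILMN_2846776 -0.15 to 0.039 and -0.041 to 0.079. ILMN_2846775 had -0.00739 with the replicate block. The mean over the probes ranged from -0.021 to 0.066. For *Igfbp2* (ILMN_2930897) the values were 0.051 (array weights) and 0.099 (replicate block) within the run, and 0.042, 0.060, 0.027 and 0.084 (median centring, joint quantile normalization, array weights and run block) with all arrays, with -0.055 to 0.038 and -0.046 to 0.037 when 1 array was left out. The cause of these changes was not tested. With 3 BLM arrays in the run, leaving out 1 of them removed most calls. Signals near the lowest on the arrays (*Cyp26b1*, *Arntl*, *Htr2b*) leave little room for a decrease.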
